A study of Mus musculus with 2 samples.

Results

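The genes described here build, cut and cross-link the extracellular matrix. They were chosen by symbol from the genes of the deposited count matrices: every gene named Mmp, Timp or Adamts directly followed by a digit, together with Lox and Loxl1 to Loxl4. This gave 50 of 32285 genes, made up of 22 Mmp genes, 4 Timp genes, 19 Adamts genes and 5 genes of the Lox family. The rule uses no measured value. Levels are given across cell groups of plantaris muscle in a sham-operated and a mechanically overloaded (MOV) library.

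The study compared muscle stem cells (MuSCs) of the plantaris, a calf muscle, after sham surgery and after 5 days of MOV, in which the tendon of the gastrocnemius and part of the soleus are cut away so that the plantaris carries their load. All mice were Pax7rtTA; TRE-H2B-GFP animals, in which the Pax7 promoter drives the doxycycline-dependent activator of a nuclear GFP. They were 26 weeks old and drank doxycycline at 2.0 mg per ml for 2 weeks, sham mice included. Cells were dissociated with collagenases and dispase and stained for VCAM (to be kept) and for CD31, CD45 and SCA1 (to be left out), while the series' design text names GFP as the basis of the sort. Each surgery is represented by 1 library, for which the labels speak of a single mouse and the methods of the study of several. Differences between the libraries are therefore described without a test, and every interval below covers counting error only.

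Matrix metalloproteinases (Mmp) are zinc enzymes that are made as inactive precursors and cut collagens, gelatins, proteoglycans and other matrix proteins once their propeptide is removed. Tissue inhibitors of metalloproteinases (Timp) bind the active site of these enzymes, and Timp3 also inhibits the Adamts enzymes that cut cartilage-type proteoglycans. Adamts proteins are secreted proteases with thrombospondin repeats, some of which cut proteoglycans such as versican and aggrecan and some of which trim procollagens. Lox and its relatives oxidise lysines of collagen and elastin, the step that starts cross-linking of fibres. In muscle, fibroblasts, tendon cells and macrophages are known sources of these proteins, and MuSCs lie under a basement membrane that they cross when they move.

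The members lay on 18 chromosomes of the GRCm38 build, and 9 Mmp genes stood side by side on chromosome 9 within 427.1 kb (chr9:7272514-7699585). Among these were Mmp13, a collagenase, and Mmp3 and Mmp10, the stromelysins. Mmp13 and Mmp3 were read mainly in cells with tenocyte markers after MOV, while 30 of the 47 Mmp10 UMIs lay in 1 such cell. The 250 bases before the start of these 3 genes are shown because they hold the AP-1 motif TGANTCA (N is any base), which was searched on both strands and is printed in capitals. Sequences are from RefSeq (GRCm38.p6), on the + strand, 5′ to 3′. The windows are chr9:7272264-7272513 for Mmp13, chr9:7445572-7445821 for Mmp3 and chr9:7502092-7502341 for Mmp10.
Mmp13: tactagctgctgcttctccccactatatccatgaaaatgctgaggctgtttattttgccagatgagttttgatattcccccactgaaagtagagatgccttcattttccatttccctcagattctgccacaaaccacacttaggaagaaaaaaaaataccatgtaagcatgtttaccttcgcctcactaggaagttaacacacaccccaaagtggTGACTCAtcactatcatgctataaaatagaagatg
Mmp3: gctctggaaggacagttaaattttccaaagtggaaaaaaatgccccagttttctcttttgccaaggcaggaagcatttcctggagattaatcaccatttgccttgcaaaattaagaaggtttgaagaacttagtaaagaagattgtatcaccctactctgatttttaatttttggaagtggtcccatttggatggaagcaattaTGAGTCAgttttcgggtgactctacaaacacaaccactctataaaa
Mmp10: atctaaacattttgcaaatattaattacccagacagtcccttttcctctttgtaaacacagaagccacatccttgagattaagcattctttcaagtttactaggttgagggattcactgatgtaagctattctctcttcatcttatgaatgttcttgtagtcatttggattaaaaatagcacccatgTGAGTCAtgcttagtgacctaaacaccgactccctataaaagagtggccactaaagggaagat
The motif began 35 bases before the start of Mmp13, 46 before that of Mmp3 and 63 before that of Mmp10. A RefSeq window was at hand for 32 of the 50 members, and 7 of these (21.88%) held the motif, against 2113 of 27025 genes with a window (7.819%). All 7 were genes of the chromosome 9 cluster, where Mmp12, Mmp7, Mmp1b and Mmp20 also held it, Mmp12 and Mmp7 in 1 of 2 windows each. The windows of Mmp8 and Mmp27 of the same cluster did not hold it. A match is a description of these letters and no evidence of binding.

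After filtering, 734 sham cells with 5768756 UMIs (counted molecules) and 2985 MOV cells with 83111903 UMIs were kept, and the median cell held 5346 UMIs in sham and 21772 in MOV. Cells were grouped by the number of detected markers of each type, none of which is a member. The groups held 104 sham and 1614 MOV MuSC-lineage cells, 25 and 416 Pdgfra cells (fibroblast-like cells of the interstitium), 22 and 134 tenocyte-marker cells and 2 and 70 myeloid-marker cells. Of the MOV Pdgfra cells 116 carried at least 3 UMIs of Lrrc15, a marker of activated fibroblasts, and no sham cell did. Further MOV groups were 18 endothelial, 26 mural and 77 Schwann-marker cells. The next 4 genes are among the markers that set the groups, so their presence there follows largely from the grouping. Pax7 stood at 114.7 CPM (UMIs scaled to a common library total) in sham and 67.4 in MOV MuSCs. Pdgfra stood at 419.9 and 121.4 CPM in Pdgfra cells. Tnmd, a tenocyte gene, stood at 1783 and 1289 CPM in tenocyte-marker cells. Tyrobp, a myeloid gene, stood at 2056 CPM in MOV myeloid cells. Rgs5, a mural marker, stood at 4412 CPM in MOV mural cells and also at 831.6 in MOV endothelial cells. Ly6a, which encodes SCA1, reached 1502 CPM in the MOV Pdgfra cells although SCA1 was a marker for leaving cells out. Of the 134 MOV tenocyte-marker cells 35 stood at the minimum of 4 of 7 markers, and 243 MOV cells were 1 marker short of it. Barcodes shared by the libraries numbered 44, and 39 of them were deeper in sham. They included 12 of the 104 sham MuSCs, so values against sham are also given without them where that moves a call.

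MOV droplets of muscle fibre RNA gave a measure of free RNA. In 53 such droplets Timp1 stood at 170.5 CPM, Timp2 at 104.9, Lox at 39.35 and Mmp14 at 0, and in the 497 sham fibre droplets Timp1 stood at 1.333 CPM, Timp2 at 24.66 and Lox at 0. MOV levels near these values may therefore hold molecules from other cells.

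Of the 50 members, 37 had at least 100 UMIs over the kept cells. Another 9 had fewer: Mmp25 (95 UMIs), Mmp10 (47), Adamts18 (29), Mmp28 (28), Adamts17 (25), Mmp27 (12), Mmp8 (8), Mmp24 (2) and Mmp1b (1). Adamts13, Mmp21, Mmp20 and Mmp7 had no UMI in any kept cell, and 0 counts allow up to 3 by the floor used here. Fibroblast-like and tendon cells were the leading site of most of the 37. In MOV, 14 were highest in Lrrc15 or other Pdgfra cells, 6 in tenocyte-marker cells, 6 in Schwann-marker cells, 5 in mural cells, 3 in myeloid cells, 2 in endothelial cells and 1, Adamts7, in MuSCs. For 19 of the 37 the interval of the highest group lay apart from that of the group next in order. Adamts7 was not among these 19. The intervals hold no spread between cells, and some of the 19 rested on few cells or UMIs. In MOV myeloid cells 95% of the Mmp9 UMIs lay in 1 cell, and 93.33% of the Mmp12 UMIs lay in 1 cell. In MOV tenocyte-marker cells 2 cells held 50% of the Mmp13 UMIs. Adamts20 had 8 UMIs in MOV Schwann-marker cells, its highest group.

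**Figure D1:**
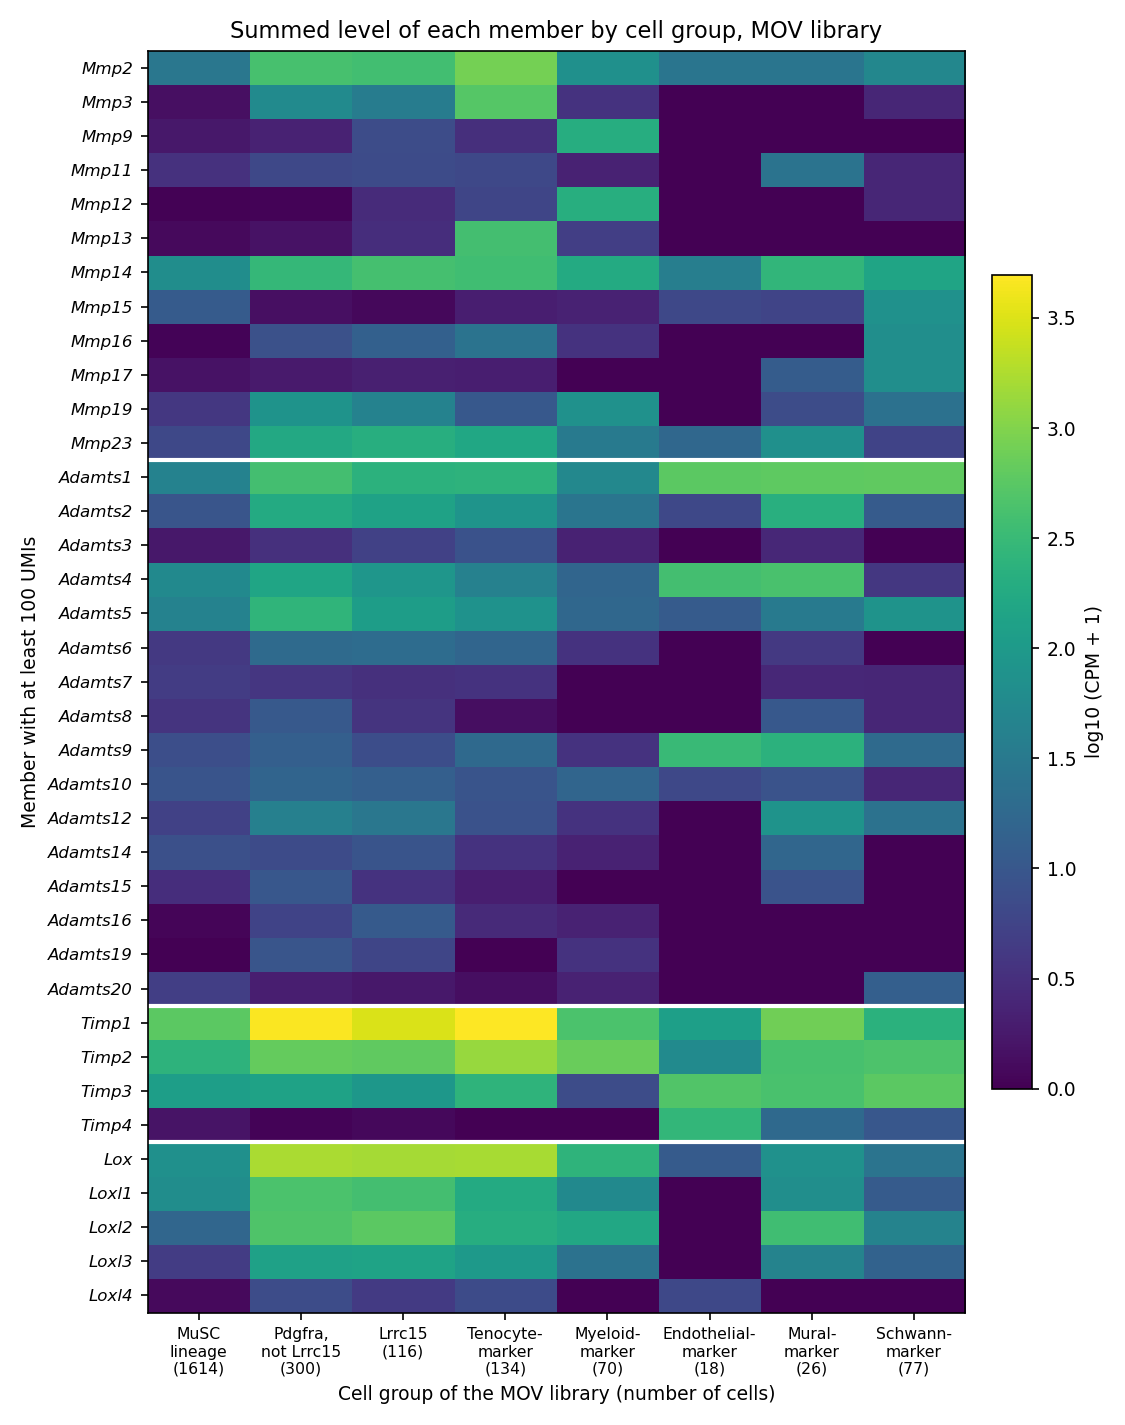
Levels of the 37 members with at least 100 UMIs (rows) in 8 cell groups of the MOV library (columns, with the number of cells in brackets), coloured by log10 of CPM plus 1. Timp1 and Lox are high in the Lrrc15, other Pdgfra and tenocyte-marker columns, Mmp13 in the tenocyte-marker column, Mmp9 and Mmp12 in the myeloid column and Timp4 in the endothelial column.

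Timp1 was the most abundant member (133778 UMIs over both libraries). In MOV, Timp1 and Timp2 were highest in tenocyte-marker cells, Timp3 in Schwann-marker cells and Timp4 in endothelial cells. Timp1 (ENSMUSG00000001131; chrX:20870166-20874735, + strand, with Syn1 on the other strand) stood in MOV at 4972 CPM in tenocyte-marker cells, 4653 in other Pdgfra cells, 3025 in Lrrc15 cells, 785.0 in mural cells, 574.2 in MuSCs, 443.4 in myeloid cells, 227.2 in Schwann cells and 122.6 in endothelial cells. All neighbours in this order had intervals apart, and the endothelial value lay below that of the fibre droplets. In sham Timp1 stood at 529.5 CPM in tenocyte-marker cells, 275.2 in MuSCs and 213.3 in Pdgfra cells. The sham intervals of MuSCs (249.7 to 302.6) and Pdgfra cells (164.2 to 272.3) overlapped.

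Timp2 (ENSMUSG00000017466; chr11:118301069-118355740, − strand, overlapped on that strand by Cep295nl) inhibits Mmp2 and also helps Mmp14 to activate it. It stood in MOV at 1333 CPM in tenocyte-marker cells, 701.7 in myeloid cells, 664.4 in other Pdgfra cells, 622.7 in Lrrc15 cells, 466.5 in Schwann cells, 421.4 in mural cells, 241.4 in MuSCs and 58.64 in endothelial cells. The intervals of myeloid and other Pdgfra cells overlapped, as did those of Schwann and mural cells. In sham Timp2 stood at 1822 CPM in tenocyte-marker cells, 1333 in Pdgfra cells and 255.2 in MuSCs, so that MuSCs were lowest of these 3 groups in both libraries.

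Timp3 (ENSMUSG00000020044; chr10:86300372-86349506, + strand, with Syn3 on the other strand) stays bound to the matrix. It was highest in MOV in Schwann and endothelial cells, where Timp1 was lowest, and in mural cells. It stood at 574.9 CPM in Schwann cells, 490.4 in endothelial cells and 432.3 in mural cells, with overlapping intervals between neighbours, and then at 254.6 in tenocyte-marker cells, 132 in other Pdgfra cells, 118.8 in MuSCs, 90.38 in Lrrc15 cells and 6.299 in myeloid cells. In sham it stood at 1614 CPM in tenocyte-marker cells, 616.7 in Schwann cells, 566.5 in Pdgfra cells and 68.96 in MuSCs. Timp4 (ENSMUSG00000030317; chr6:115241892-115252205, − strand, with Syn2 on the other strand) was a gene of few cells. In MOV endothelial cells it had 52 UMIs (277.2 CPM) in 6 of 18 cells, and in sham 20 UMIs in 3 of 4 endothelial cells, against 0.5753 CPM in MOV MuSCs and no UMI in MOV tenocyte-marker or myeloid cells.

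In the chromosome 9 cluster Mmp13 and Mmp3 had the most UMIs, in a minority of the tenocyte-marker cells. Mmp13 (ENSMUSG00000050578; chr9:7272514-7283331) stood at 389.5 CPM in MOV tenocyte-marker cells, and its next values were 3.779 in myeloid cells, 2.063 in Lrrc15 cells, 0.5205 in other Pdgfra cells and 0.2301 in MuSCs, with overlapping intervals between neighbours in this order. The sham library held no Mmp13 UMI. The tenocyte level came from few cells: 1103 UMIs lay in 19 of 134 cells, 531 of them (48.14%) in a single cell, and 2 cells held 50% of the total. Without the top tenocyte-marker cell the log2 ratio of tenocyte-marker over Pdgfra cells was 7.57 rather than 8.51.

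Mmp3 (ENSMUSG00000043613; chr9:7445822-7455975), which cuts proteoglycans and activates other Mmp precursors, was wider spread. It stood at 532.5 CPM in MOV tenocyte-marker cells, 56.84 in other Pdgfra cells, 34.69 in Lrrc15 cells, 2.52 in myeloid cells and 0.4411 in MuSCs. In tenocyte-marker cells 1508 UMIs lay in 40 of 134 cells, of which 6 held 50%. In MOV Pdgfra cells 731 UMIs lay in 79 of 416 cells, of which 4 held 50%. Sham Pdgfra cells held 36 Mmp3 UMIs in 3 of 25 cells (120 CPM), and sham tenocyte-marker cells and MuSCs held none. Of the MOV tenocyte-marker cells 11 carried both Mmp13 and Mmp3, 8 Mmp13 alone, 29 Mmp3 alone and 86 neither. Mmp10 (ENSMUSG00000047562) had 30 UMIs in tenocyte-marker cells, all of them in 1 cell.

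That cell was also the top cell for Mmp13 and carried 130 Mmp3 UMIs, and it was low in some tenocyte genes. It held 30195 UMIs in all. Tnmd stood at 231.8 CPM there against 1300 in the other 133 tenocyte-marker cells, Scx, a transcription factor of tendon, at 0 against 485.1, and Fmod, a small proteoglycan of tendon, at 264.9 against 3472, while Thbs4, a matrix protein of tendon, stood at 5398 against 8243. Timp1 stood at 1027 CPM in it against 5014, and Lox at 99.35 against 1662. Among tenocyte-marker cells, the 97 with no Lrrc15 UMI had Mmp13 at 592.2 and Mmp3 at 788 CPM (278.3 and 723 without the top Mmp13 cell), and the 22 with at least 3 Lrrc15 UMIs had 32.94 and 179.3. Mmp14 lay the other way, at 272.7 and 560 CPM. The 61 cells that passed both the Pdgfra and the tenocyte lists, and were set apart from both groups, had Mmp13 at 0.4232 and Mmp3 at 44.86 CPM.

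Mmp12 (ENSMUSG00000049723; chr9:7344381-7369499, overlapped on the other strand by Mmp1b), the macrophage elastase, also lies in the cluster, and Mmp9 (ENSMUSG00000017737; chr2:164940780-164955850), a gelatinase, lies elsewhere. In MOV myeloid cells Mmp12 stood at 207.9 CPM and Mmp9 at 201.6, and each level rested on 1 cell. Of 165 Mmp12 UMIs 154 (93.33%) lay in 1 cell, and of 160 Mmp9 UMIs 152 (95%) lay in another. The Mmp9 cell held 493 UMIs of Ctsk and 329 of Acp5, genes known from osteoclasts, none of C1qa, a macrophage gene, and 26 of Csf1r. The Mmp12 cell held 11 UMIs of C1qa and 2 of Csf1r. Myeloid levels of Mmp9 and Mmp12 are therefore levels of those 2 cells. Among the other MOV cell groups named above, the highest level of Mmp9 was 6.188 CPM in Lrrc15 cells, from 33 UMIs in 12 of 116 cells.

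**Figure D2:**
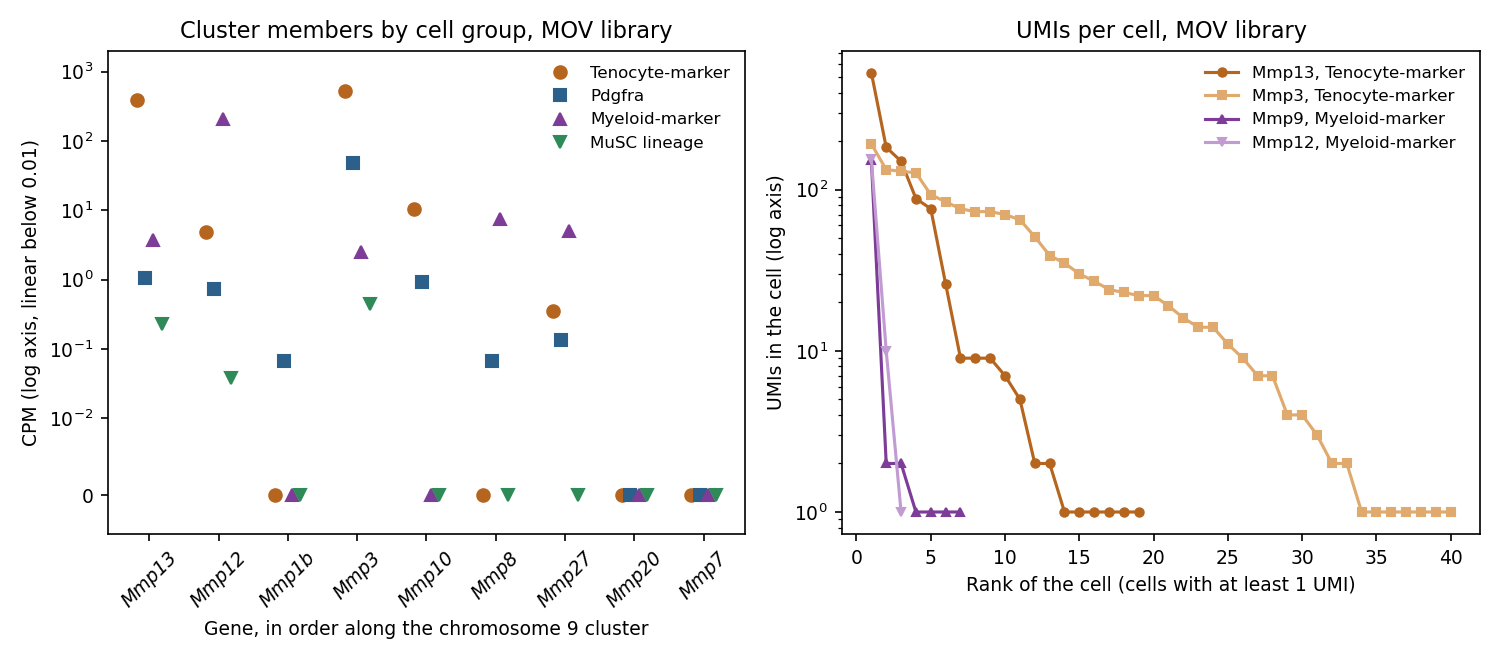
Left, CPM (axis linear below 0.01 and logarithmic above) of the 9 Mmp genes of the chromosome 9 cluster in tenocyte-marker, Pdgfra, myeloid and MuSC-lineage cells of the MOV library. Right, UMIs per cell (log axis) of Mmp13 and Mmp3 in tenocyte-marker cells and of Mmp9 and Mmp12 in myeloid cells, ranked from the highest cell; Mmp9 and Mmp12 drop after 1 cell while Mmp3 declines over 40.

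The widely read Mmp genes were Mmp2 and Mmp14. Mmp2 (ENSMUSG00000031740; chr8:92827291-92853420), a gelatinase, stood in MOV at 852.1 CPM in tenocyte-marker cells, 417.2 in other Pdgfra cells, 378.8 in Lrrc15 cells, 71.81 in myeloid cells, 51.17 in Schwann cells and between 26.53 and 27.79 in mural, endothelial and MuSC-lineage cells, these last 3 with overlapping intervals. Mmp14 (ENSMUSG00000000957; chr14:54431612-54445364), a transmembrane enzyme that activates Mmp2, stood at 407.5 CPM in Lrrc15 cells and 370.1 in tenocyte-marker cells with overlapping intervals, at 290.1 in other Pdgfra cells, 271.6 in mural cells, 178.9 in myeloid cells, 143 in Schwann cells, 63.44 in MuSCs and 37.32 in endothelial cells. Stromal cells thus led for both enzymes, and MuSCs held a low level of each. In sham, Mmp2 stood at 893.1 CPM in Pdgfra cells, 796.4 in tenocyte-marker cells and 34.8 in MuSCs, and Mmp14 at 160, 38.12 and 26.42.

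Other Mmp genes were highest in Schwann-marker, Pdgfra or mural cells. The transmembrane enzymes Mmp15 and Mmp16 and the lipid-anchored Mmp17 were highest in MOV Schwann-marker cells, at 73.74, 66.22 and 66.22 CPM, with 49 UMIs in 32, 44 in 22 and 44 in 29 of 77 cells. Sham Schwann cells had Mmp15 at 71.16 CPM. Mmp19 stood at 77.56 CPM in other Pdgfra cells and 73.07 in myeloid cells with overlapping intervals, the latter from 58 UMIs in 25 of 70 cells. Mmp23 was highest in Lrrc15 cells at 209.1 CPM, above 167 in other Pdgfra cells. Mmp11, stromelysin-3, was highest in mural cells at 24.97 CPM.

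Proteoglycan-cutting Adamts genes were led by vascular and Schwann cells or by fibroblasts. Adamts1 (ENSMUSG00000022893; chr16:85793827-85803113, − strand) stood in MOV at 630.5 CPM in Schwann cells, 608.7 in mural cells and 586.4 in endothelial cells with overlapping intervals, then at 395.2 in other Pdgfra cells, 247.2 in tenocyte-marker cells, 237 in Lrrc15 cells, 51.65 in myeloid cells and 41.9 in MuSCs. Its chromosome 16 neighbour Adamts5 (ENSMUSG00000022894; chr16:85856173-85901828, − strand), a versican- and aggrecan-cutting enzyme, was highest in other Pdgfra cells at 262.7 CPM and stood at 112.5 in Lrrc15 cells and 43.19 in MuSCs. Adamts4, of the same function, stood at 429.2 CPM in mural cells, where 24 of 26 cells had a UMI, and at 383.8 in endothelial cells. Adamts9 led in endothelial cells at 314.5 CPM (59 UMIs in 15 of 18 cells), with mural cells at 234.1 and an overlapping interval. The procollagen-trimming Adamts2 stood at 216.9 CPM in mural and 180.5 in other Pdgfra cells, also with overlapping intervals, and Adamts12 at 78.03 in mural cells, above 39.35 in other Pdgfra cells.

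The cross-linkers were genes of stromal cells. Lox (ENSMUSG00000024529) stood in MOV at 1712 CPM in other Pdgfra cells, 1646 in tenocyte-marker cells and 1576 in Lrrc15 cells, with overlapping intervals between neighbours, and then at 255.7 in myeloid cells, 73.35 in mural cells, 70.47 in MuSCs, 25.58 in Schwann cells and 10.66 in endothelial cells. Loxl1 (ENSMUSG00000032334; chr9:58287738-58313186) stood at 451.5 CPM in other Pdgfra cells, 385.5 in Lrrc15 cells, 180.8 in tenocyte-marker cells and 64.78 in MuSCs. Loxl2 (ENSMUSG00000034205; chr14:69609068-69695834), known for cross-linking basement membrane collagen, stood at 581.3 CPM in Lrrc15 cells, 476.1 in other Pdgfra cells, 360.5 in mural cells, 202.3 in tenocyte-marker cells and 15.71 in MuSCs. Loxl3 stood at 138 CPM in Lrrc15 and 128.7 in other Pdgfra cells with overlapping intervals. These counts are of transcript 3′ ends and were not divided by length.

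The MOV Pdgfra cells were next compared with the MuSCs of the same library. Pdgfra cells held at least 2-fold more of 28 of the 37 members tested. Timp1 stood at 4072 CPM and Lox at 1664 in all Pdgfra cells. Lox was 23.6-fold higher than in MuSCs (24851 UMIs against 3675, log2 4.56), Timp1 7.09-fold higher (log2 2.83), Mmp2 14.5-fold higher (log2 3.86), Loxl2 32.7-fold higher (log2 5.03) and Mmp3 110.9-fold higher (log2 6.79). The Mmp3 level of Pdgfra cells rested on few cells, with 50% of its UMIs in 4 of 416. Mmp14 (log2 2.39), Loxl1 (2.72), Adamts1 (3.02), Mmp23 (5.08), Mmp19 (4.44) and Timp2 (1.43) were also higher. The lower members were Mmp15 (log2 -4.99, 95% interval -6.62 to -3.76), Adamts20 (-2.05, from 14 and 202 UMIs) and Timp4 (-2.10, from 2 and 30 UMIs). Timp3 stood at -0.02, and at -0.61 when MuSCs in S and G2/M phase were left out. These 28 higher and 3 lower members, of 37 with at least 20 UMIs, stand against 18.8% and 17.7% of all genes tested. Their median log2 ratio was 2.39, and that of all genes tested -0.13. Of 55 other genes of the pathway (activators, inhibitors, substrates and partners, from a list set down with the rule) 41 were higher and 1 lower, among them the collagen-cutting cathepsin Ctsk (323.5 against 4.679 CPM), the elastic fibre protein Fbln5 (106.7 against 1.572), Col1a1 (8857 against 160.9) and Fn1, fibronectin (3307 against 60.41). The groups were set by marker genes, so these are differences between cell types of 1 library.

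Tenocyte-marker cells held more collagenase and stromelysin RNA than Pdgfra cells and less of several Adamts genes. They held more Mmp13 (log2 8.51, 95% interval 7.80 to 9.32), Mmp3 (3.44, 3.31 to 3.57), Mmp2 (1.08, 1.01 to 1.15), Timp3 (1.12, 0.99 to 1.25) and Timp2 (1.04). Mmp16 (1.40) and Adamts3 (1.33), a procollagen-trimming enzyme, were also higher. Mmp10 stood at 3.50 from 30 and 14 UMIs, but all 30 lay in 1 cell and the other 133 tenocyte-marker cells held 0. Tenocyte-marker cells held less Loxl1 (log2 -1.24), Loxl2 (-1.34) and Mmp19 (-2.77) and less of many Adamts genes, with Adamts5 at -1.48, Adamts4 at -1.61, Adamts12 at -2.26 and Adamts8, from 1 and 108 UMIs, at -4.36. Adamts19 had no UMI in tenocyte-marker cells and 106 in Pdgfra cells, which put its log2 ratio at -2.74 or lower. Timp1 (0.29), Mmp14 (0.16), Lox (-0.02) and Adamts1 (-0.45) were within 2-fold.

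Of 35 members tested, 9 were at least 2-fold higher and 12 lower in tenocyte-marker cells, against 5.91% and 11.6% of all genes. The median log2 ratio was -0.26, against -0.12 over all genes. Among 54 other pathway genes 6 were higher and 9 lower, with the cartilage and tendon proteins Comp (1514 against 33.47 CPM) and Acan (15.54 against 1.272) on the one side and the inhibitor Serpine2 (45.91 against 282.1) and versican, Vcan (130.3 against 588.6), on the other. Mmp12 was higher at a log2 of 2.75 from 14 and 11 UMIs, and at 0.96 without the top cell. Adamts15 was lower at -2.66, but stood at 0.12 when all cells were thinned to 2000 UMIs, where Mmp2 stood at 0.79.

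Between Lrrc15 cells and the other Pdgfra cells 5 of 32 members differed by at least 2-fold. The 3 lower members were proteoglycan-cutting enzymes, with Adamts5 at 112.5 against 262.7 CPM (log2 -1.22, -1.35 to -1.09), Adamts8 at a log2 of -1.90 and Adamts15 at -1.89. Adamts16 was higher (1.17, from 55 and 44 UMIs), and so was Mmp9 (2.31, from 33 and 12 UMIs, 1.73 without the top cell). Mmp14 (0.49), Mmp23 (0.32) and Loxl2 (0.29) were higher within 2-fold, and Timp1 (-0.62), Adamts1 (-0.74) and Timp3 (-0.55) lower within 2-fold, while Lox (-0.12), Loxl1 (-0.23), Mmp2 (-0.14) and Timp2 (-0.09) stood close to 0. Of 32 members 2 were at least 2-fold higher and 3 lower, against 2.31% and 6.7% of all genes (9.01% either way), and the medians were -0.23 and -0.06. In the pathway list 1 of 53 genes was higher and 12 were lower, among them Col4a1 (123.8 against 714.1 CPM) and Col4a2 (63.94 against 352.3), the basement membrane collagens, and the protease inhibitor Serping1 (264.8 against 814.8). The 36 cells with at least 3 Lrrc15 UMIs that passed no marker list had Mmp14 at 726.5, Loxl2 at 704.1 and Mmp23 at 284.3 CPM.

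**Figure D3:**
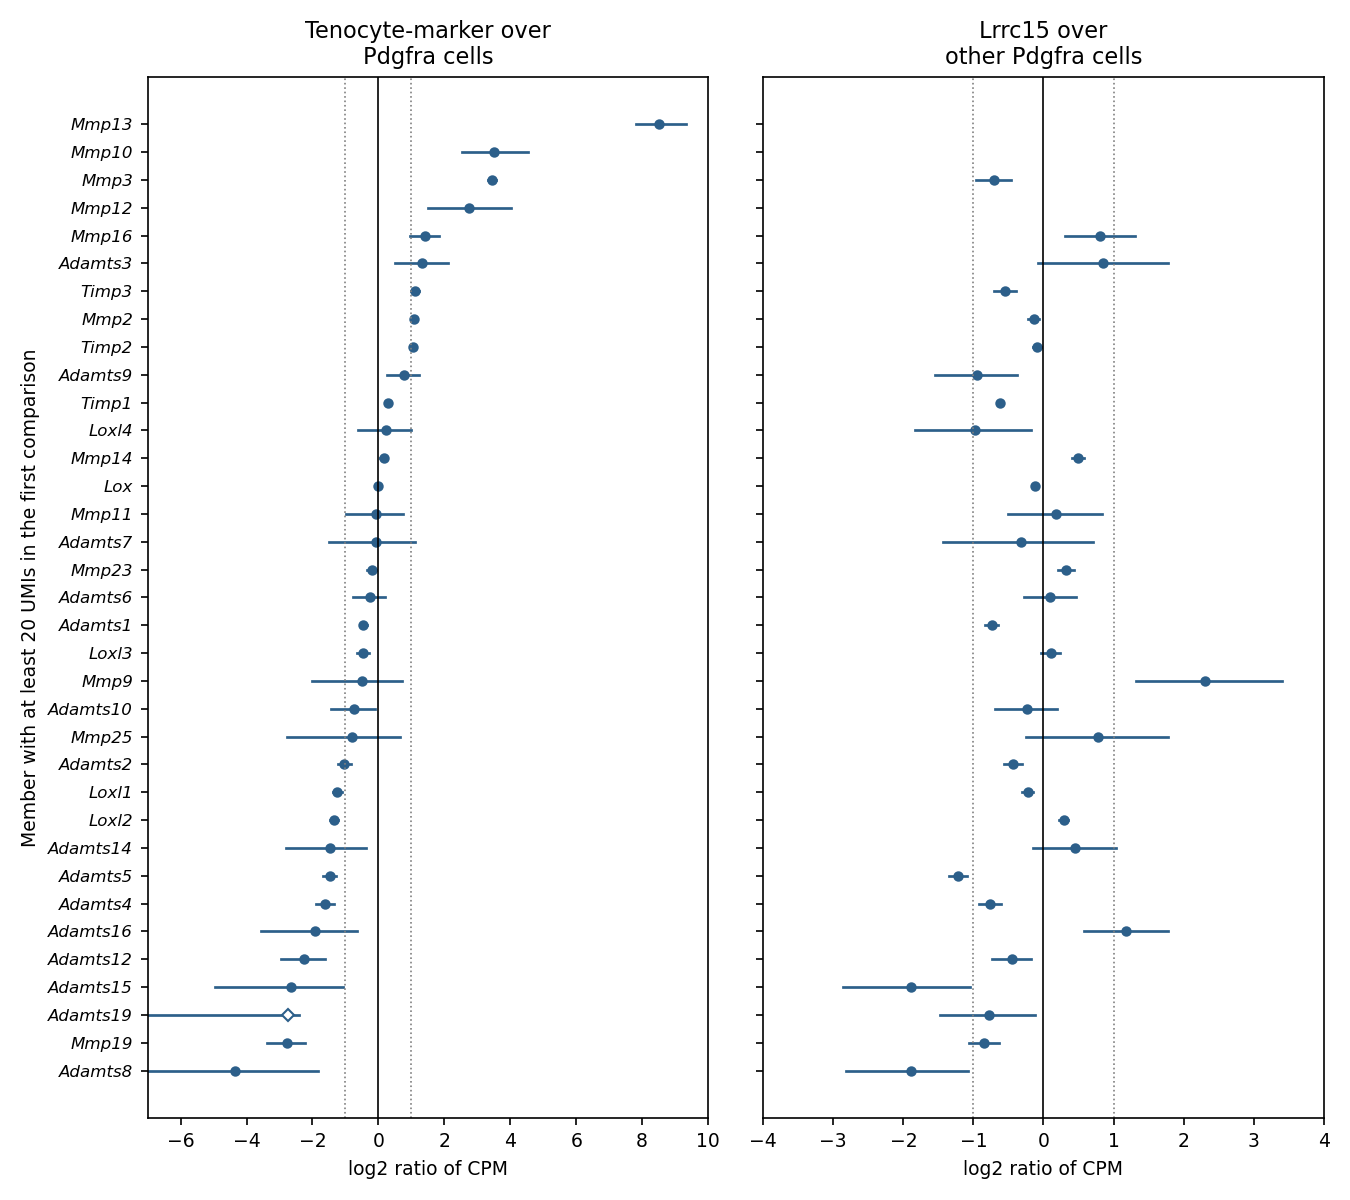
Log2 ratios with 95% counting intervals of the members in the MOV library, tenocyte-marker over Pdgfra cells (left, 35 members) and Lrrc15 over other Pdgfra cells (right), with dotted lines at 2-fold and an open diamond for a bound. Mmp13 and Mmp3 stand at the far right of the left panel, at 8.51 and 3.44, and most members lie between the dotted lines in the right panel.

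Myeloid cells were compared with MuSCs of the MOV library. Mmp19 was higher at a log2 of 4.60 (4.14 to 5.04), Timp2 at 1.54 (1.41 to 1.66) and Mmp14 at 1.50 (1.24 to 1.74), while Timp3 was lower at -4.24 (-5.86 to -3.01, 5 UMIs in 70 cells) and Mmp15 at -3.08, Adamts4 at -1.87 and Adamts5 at -1.40. Timp1 (-0.37), Loxl1 (-0.19) and Adamts1 (0.30) were within 2-fold. Mmp9 (8.11) and Mmp12 (12.40) rested on the single cells above, with 3.86 and 8.54 when the top cell was left out. Of 32 members 12 were at least 2-fold higher and 7 lower, against 19.6% and 21% of all genes, with a median of -0.26 (0.75 with genes at 0 UMIs set at their bound) against -0.39. Among 51 pathway genes 28 were higher and 8 lower, among them the cathepsins Ctss (2186 against 1.707 CPM) and Ctsb (4151 against 145.1). The level of Ctsk, 666.4 against 4.679 CPM, rested on the Mmp9 cell, and the other 69 myeloid cells stood at 47.73. The 55 myeloid cells whose C1qa and C1qb UMIs summed to at least 3 had Mmp14 at 189.9, Mmp19 at 75.95 and Timp2 at 787.1 CPM, and the other 15 had 149.2, 65.28 and 470.9.

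Fibroblast genes were also read in the myeloid cells. Col1a1 stood at 2225 CPM there, against 160.9 in MuSCs and 8857 in Pdgfra cells. Lox (log2 1.86), Loxl2 (3.36), Loxl3 (2.75), Mmp23 (2.55) and Mmp2 (1.37) were higher in myeloid cells than in MuSCs, and per Col1a1 UMI the myeloid cells held 0.1149 of Lox and 0.07248 of Loxl2, against 0.1878 and 0.058 in Pdgfra cells. Mmp14 stood at 0.08041 per Col1a1 UMI in myeloid cells, against 0.03749 in Pdgfra cells. The part of fibroblast RNA in the myeloid levels of these 5 genes, and of Mmp14 and Timp2 above, was not tested. In cells thinned to 2000 UMIs the log2 ratio of myeloid cells over MuSCs was 0.13 for Lox and 0.68 for Loxl2, and Mmp2 was at -0.11. Without the top cell Loxl2 stood at 1.84 and Mmp2 at 0.73.

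Within the MOV MuSCs, states were set by marker genes, and the members past 2-fold were mostly higher in cells with matrix markers (Gpc3 or Islr), quiescence markers and immediate-early genes and mostly lower in myocytes. G2/M cells, 571 of 1614 MOV MuSCs, held 26119555 of their 52146730 UMIs. They therefore weigh most in the summed other MuSCs against which every other state is set. Their part in the ratios of those states was not tested. Timp3 stood at 504.7 CPM in the 114 matrix MuSCs against 101.7 in all other MuSCs (log2 2.31, 2.22 to 2.40), at 336.8 against 109.6 in the 144 quiescence-marker MuSCs (1.62), at 74.54 against 163.3 in the 571 G2/M cells (-1.13) and at 47.37 against 127.9 in the 120 late myocytes (-1.43). Matrix MuSCs also held more Lox (203.1 against 64.6 CPM, 1.65), Mmp14 (162.4 against 59.06, 1.46), Loxl1 (161.9 against 60.48, 1.42), Mmp2 (1.32, and 0.96 thinned), Adamts5 (1.40), Timp1 (1119 against 550.1, 1.02), and, from 25 and 24 UMIs, Adamts15 (2.82) and Adamts6 (1.94), while Adamts1 (0.42) and Timp2 (0.27) were within 2-fold. Mmp15 (-1.42), Adamts8 (-1.54) and Adamts20 (-2.15), from 9, 2 and 2 UMIs, were lower. Of 31 members 12 were at least 2-fold higher and 3 lower, against 7.68% and 11.9% of all genes, and the medians were 0.91 and -0.04. Pathway genes numbered 17 higher and 4 lower of 51, among them the plasminogen activator Plat (1.81), the procollagen protease Bmp1 (1.68) and Htra3 (1.61). Lrrc15 fibroblast markers summed to 438.3 CPM in matrix MuSCs and 118.7 in late myocytes, against 225.4 over all MOV MuSCs, and their part in these values was not tested.

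In quiescence-marker MuSCs Mmp2 (log2 1.27), Loxl1 (1.20) and Lox (1.09) were at least 2-fold higher than in the other MuSCs, and Adamts1 (0.98), Mmp14 (0.69), Timp1 (0.39) and Timp2 (0.25) were within 2-fold. In thinned cells Lox stood at 0.50 and Mmp2 at 0.90. Of 31 members 12 were higher and 1 lower (Mmp15, at -1.53 from 8 UMIs), against 7.55% and 12.9% of all genes, and the medians were 0.52 (0.60 with bounds) and -0.10. Pathway genes numbered 15 higher and 2 lower of 51, led by Col4a1 (818.5 against 203 CPM) and Col4a2 (log2 1.98). Pdgfra-cell markers moved with some states. Their summed level was 282 CPM in quiescence-marker, 219 in interferon, 211 in immediate-early, 151 in matrix and 120 in unnamed MuSCs, against 42 in G2/M cells, 27 in early and 23 in late myocytes, and their part in these state differences was not tested.

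Myocytes held less of 12 (late) and 11 (early) of 31 members. In late myocytes Mmp14 stood at 26.14 against 68.19 CPM (log2 -1.38), Adamts1 at -1.20 (-0.50 thinned), Mmp2 at -1.14, Lox at -0.99, Loxl2 at -1.70, Adamts9 at -2.44 and Adamts15 at -3.73. Timp2 was the exception among the abundant genes, at 358.7 against 226.5 CPM (0.66), with Timp1 at -0.73. Timp4 was higher at 3.36, from 17 and 13 UMIs. In the 65 early myocytes Lox stood at 28.05 against 72.9 CPM (-1.38, and -0.57 in cells thinned to 2000 UMIs), Adamts1 at -1.23, Mmp2 at -1.05, Adamts5 at -1.66, Loxl2 at -1.94 and Timp2 at 0.39. In thinned early myocytes Adamts1 stood at -3.22, Loxl1 at -2.44 (-0.80 over all UMIs) and Timp1 at 0.34 (-0.20 over all UMIs), and with doublets kept Mmp2 stood at -0.85. Of 31 members 1 was higher and 12 lower in late myocytes, against 8.16% and 13.7% of all genes, and 0 were higher and 11 lower in early myocytes, against 3.05% and 7.63%. The medians were -0.73 (-0.65 with bounds) and -0.67 (-0.66 with bounds), against -0.16 and -0.07 over all genes. Among 51 pathway genes 2 were higher and 22 lower in late myocytes and 0 and 14 in early myocytes, with Col4a1 at -2.08 and -1.59.

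The cycling states and the MuSCs of no named state were compared with the other MuSCs in the same way. In G2/M cells Timp1 stood at 491.4 against 657.3 CPM (log2 -0.42), Timp2 at -0.67, Lox at -0.75 and Loxl1 at -0.80, and Timp3, Adamts15 (-1.84), Mmp19 (-1.55) and Timp4 (-2.33, 5 UMIs) were lower by at least 2-fold, with Mmp17 at 1.17 from 18 and 8 UMIs. Of 31 members 1 was higher and 4 lower, against 5.8% and 7.93% of all genes (13.7% either way), and the pathway list had 1 and 9 of 51. In the 148 S phase cells the 8 genes named in every comparison lay within 0.5 of no difference, from Timp3 at -0.47 to Adamts1 at 0.24. There Adamts15 (1.09) was higher and Mmp23 (-1.16) and Adamts6 (-1.04) were lower, 1 and 2 of 31 members, against 1.66% and 7.07% (8.72% either way), with 0 and 1 of 51 pathway genes. In the 337 MuSCs of no named state Timp1 stood at 889.3 against 526.9 CPM (0.76), Lox at 0.82 and Mmp2 at 0.80, with 2 of 31 members higher (Mmp19 at 1.42 and Mmp9 at 1.05) and 1 lower (Timp4 at -1.07, 2 UMIs), against 3.13% and 9.8%. The medians of the members were -0.67, -0.08 (-0.03 with bounds) and 0.47 in these 3 states, against -0.06, -0.02 and -0.02 over all genes.

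Among MuSC states Adamts1 was highest in the immediate-early and interferon states, with overlapping intervals. It stood at 114.8 against 40.65 CPM in the 60 interferon MuSCs (log2 1.50) and at 123 against 40.39 in the 55 immediate-early MuSCs (1.61). Loxl2 (59.09 against 14.96 CPM, 1.98), Mmp19 (1.99), Adamts8 (1.90), Loxl3 (1.88) and Mmp23 (1.72) were higher in interferon MuSCs, where Timp1 was at -0.54. Immediate-early MuSCs held more Loxl1 (1.14) and Timp3 (1.08), and Adamts15 (2.65) from 11 UMIs, at 1.21 without the top cell. Of 31 members 6 were higher and 0 lower in interferon MuSCs, against 10.9% and 11.7% of all genes, and 12 and 0 in immediate-early MuSCs, against 13.1% and 7.98%. The medians were 0.61 (0.65 with bounds) and 0.90 (0.96 with bounds), against -0.12 and 0.05. Of 51 pathway genes 22 were higher and 0 lower in interferon MuSCs, led by Col1a1 (821.6 against 149.6 CPM), and 13 and 3 in immediate-early MuSCs. Markers of Lrrc15 fibroblasts summed to 873 CPM in interferon MuSCs against 225.4 over all MOV MuSCs, and their part in these values was not tested. With 1 more marker needed for every group and state, Loxl2 stood at 0.87, Adamts1 at 0.93 and Timp1 at 1.25 in 40 interferon MuSCs. Of the 1009 Timp1 UMIs there 747 lay in 1 cell, which passed several marker lists in the main grouping, and without that cell Timp1 stood at -0.52, Loxl2 at 0.72 and Adamts1 at 1.11. In cells thinned to 2000 UMIs Adamts1 stood at 0.98 in interferon and 0.79 in immediate-early MuSCs, Loxl2 at 0.71 in interferon MuSCs, and Timp3 at 0.26 and Loxl1 at 0.66 in immediate-early MuSCs, all within 2-fold.

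**Figure D4:**
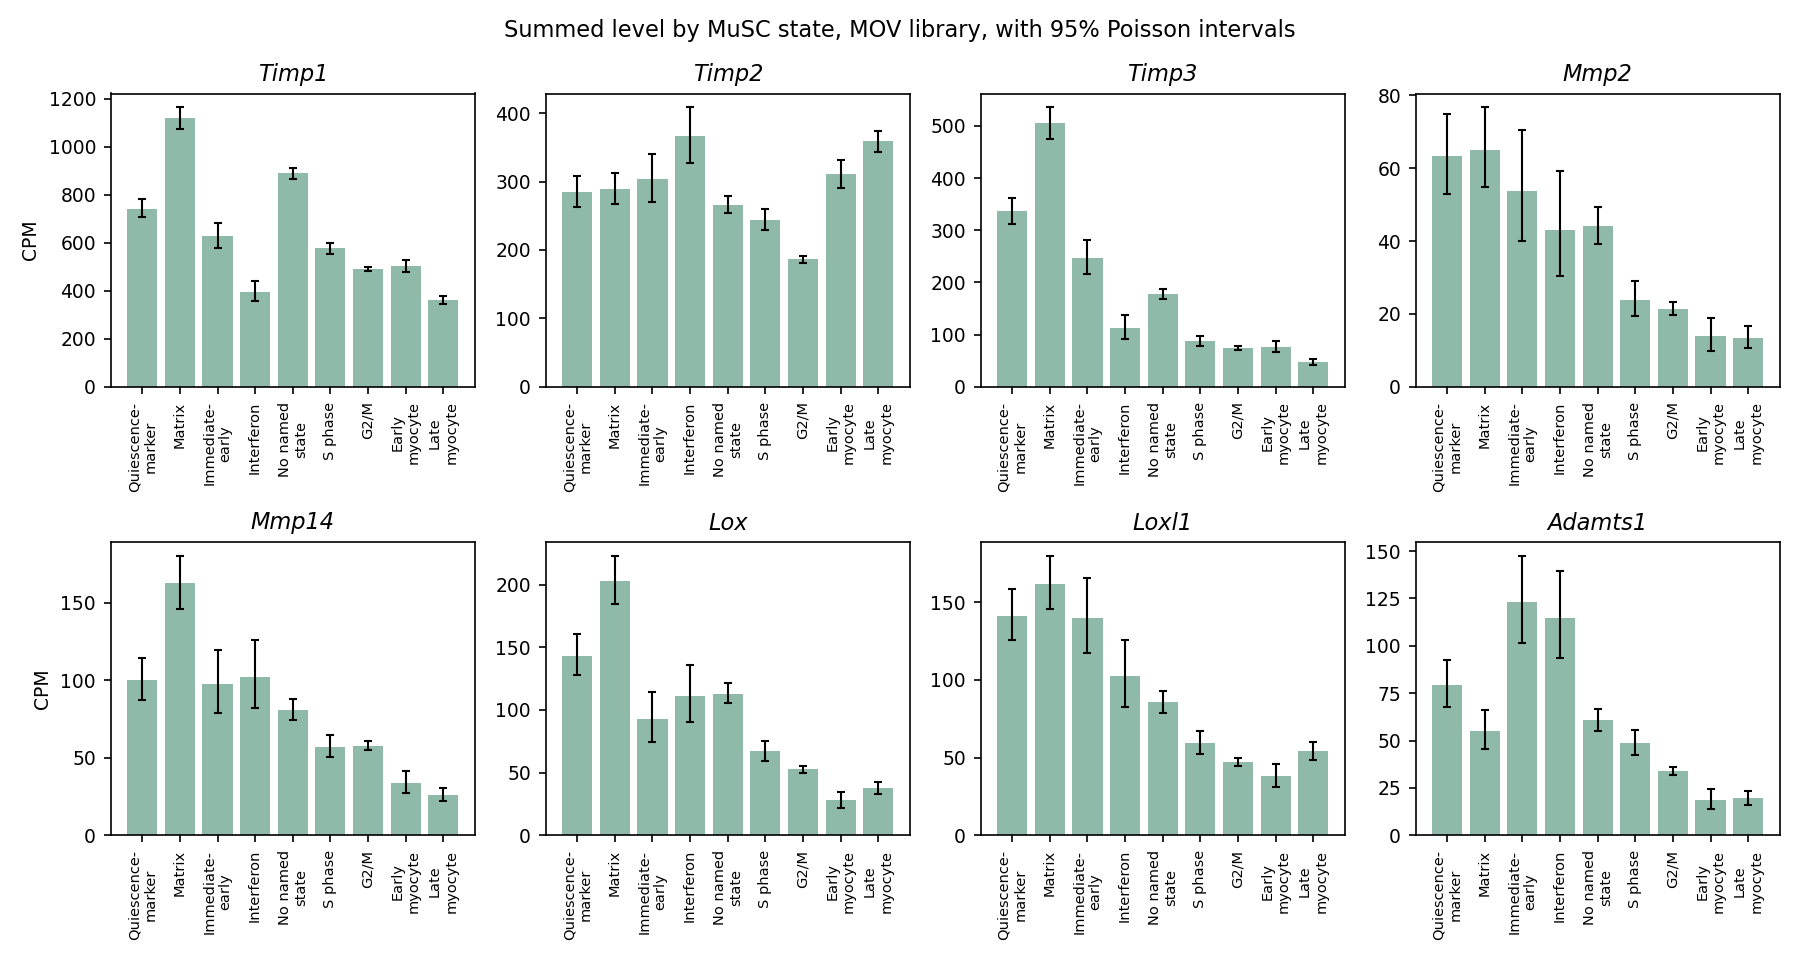
CPM with 95% Poisson intervals of 8 members (panels) in each MuSC state of the MOV library (bars starting at 0). Timp3 is highest in matrix MuSCs at 504.7 CPM and lowest in late myocytes at 47.37, and Timp2 is at 358.7 CPM in late myocytes.

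The MOV and sham libraries were then set side by side, first over all kept cells. Timp1 stood at a log2 ratio of 3.68 (3.58 to 3.79), Mmp23 at 3.57 (3.06 to 4.14), Lox at 2.86 (2.72 to 3.00), Adamts12 at 3.00, Loxl3 at 2.62, Mmp14 and Mmp19 at 2.57, Mmp3 at 2.30, Loxl2 at 2.05 and Loxl1 at 1.99, and Mmp13, with 1162 UMIs against 0, at 4.75 or more. Timp4 was lower at -1.93 (-2.45 to -1.37), but stood at 0.0994 with a mitochondrial limit of 5%. Mmp2 (0.59), Timp2 (0.51), Timp3 (-0.21) and Adamts1 (-0.29) were within 2-fold. Of 42 members 26 were at least 2-fold higher and 1 lower, against 23.4% and 13.1% of all genes, and the medians were 1.67 (1.48 with bounds) and 0.43. Among 55 pathway genes 27 were higher and 5 lower, led by Col3a1 (4154 against 520 CPM) and Col1a1 (3118 against 520.4). The libraries differed in their cells: muscle fibre droplets made up 497 of 734 sham and 53 of 2985 MOV barcodes, and fewer cells of a type and less RNA per cell cannot be told apart in these sums. The comparison was therefore repeated within groups.

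In MuSCs Timp1, Lox and Mmp14 were higher and Adamts1 and Loxl2 lower in MOV. Timp1 stood at 275.2 CPM in sham and 574.2 in MOV (log2 1.06, 0.92 to 1.20), Lox at 30.93 and 70.47 (1.19, 0.78 to 1.63), Mmp14 at 26.42 and 63.44 (1.26, 0.82 to 1.75) and Timp3 at 68.96 and 118.8 (0.79, 0.51 to 1.07). Adamts1 was lower, at 143.7 in sham and 41.9 in MOV (-1.78, -1.98 to -1.57), and so was Loxl2, at 38.67 and 15.71 (-1.30, -1.68 to -0.90). Timp2 (-0.08), Mmp2 (-0.32) and Loxl1 (0.33) were within 2-fold. Adamts12, Adamts15 and Mmp15, with at most 8 sham UMIs each, were also at least 2-fold higher, and Adamts8 was lower (-1.60, from 133 and 12 UMIs). Adamts2 had 435 UMIs in MOV and 1 in sham (3.69, 1.21 to 9.0), and Mmp23 had 281 and 0, a log2 of 1.48 or more. Without the barcodes shared by both libraries Timp1 stood at 0.65, Lox at 0.68 and Mmp23 at 0.70, all within 2-fold, and Adamts1 at -2.47 and Mmp2 at -0.99. Thinned to 2000 UMIs, Timp1 stood at 0.86 and Lox at 0.93. Loxl2, Adamts8, Adamts12, Adamts15 and Mmp15 were not among the members recomputed in these ways.

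Timp1 UMIs of sham MuSCs were concentrated in few cells. The 427 sham UMIs lay in 44 of 104 cells, and 4 cells held 50% of them, whereas 1515 of 1614 MOV MuSCs had a UMI. Thinned to 2000 UMIs per cell, 20.2% of sham (13 to 29.2, exact Clopper-Pearson) and 52.5% of MOV MuSCs (50.1 to 55) had a Timp1 UMI, with 35.3% of MOV endothelial cells and 34.2% of MOV Schwann cells at the same depth. Lox was seen in 5.77% of sham and 13.3% of MOV MuSCs, against 6.85% of MOV Schwann cells and 0% of 17 MOV endothelial cells (up to 19.5%). The MOV MuSC share of Timp1 lay apart from that of Schwann cells (23.5 to 46.3) and within the wide interval of the 17 endothelial cells (14.2 to 61.7), and the Lox shares of MOV MuSCs and Schwann cells overlapped.

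Of 31 members 8 were at least 2-fold higher in MOV MuSCs and 3 lower, against 11.1% and 9.61% of all genes, and the medians were 0.33 (0.31 with bounds) and 0.20. Pathway genes numbered 12 higher and 3 lower of 51, among them Fn1 (60.41 against 1.289 CPM), Vcan (83.44 against 16.11) and Col1a2 (388.7 against 92.16), with the proprotein convertase Pcsk5 lower (2.723 against 15.47). Muscle fibre genes summed to 10962 CPM in sham and 2148.4 in MOV MuSCs, markers of Lrrc15 fibroblasts to 63.8 and 225.4, tenocyte markers to 19.33 and 79.05, Pdgfra-cell markers to 212 and 71.8 and interferon markers to 418.9 and 146. Immediate-early genes summed to 1758 CPM in sham and 1249.2 in MOV MuSCs. The immediate-early state, where Adamts1 was among the highest, held 16 of 104 sham and 55 of 1614 MOV MuSCs. Free RNA in fibre droplets differed as well, with Lox at 0 in sham and 39.35 CPM in MOV and Timp1 at 1.333 and 170.5. The part of these in the values of MuSCs was not tested. G2/M cells held 483283 of the 1551728 sham MuSC UMIs although they were 9 of 104 cells, and 6 of the 9 carried a shared barcode. Without S and G2/M cells 12 members were past 2-fold, with Timp1 at 1.02, Lox at 1.08, Timp3 at 1.01, Adamts1 at -2.05 and Mmp23 at 0.80.

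The libraries were also compared within MuSC states. In quiescence-marker MuSCs (33 sham, 144 MOV) Timp1 stood at a log2 of -0.06 (-0.26 to 0.14), where 100 of the 232 sham UMIs lay in 1 cell, and Timp2 at 0.02. Timp3 was higher in MOV (1.90, 1.35 to 2.51), as were Lox (3.42, 2.05 to 5.30, from 303 and 4 UMIs), Mmp14 (1.58), Loxl1 (1.15), Adamts4 (1.12) and Adamts9 (1.39, from 37 and 2 UMIs), and Adamts1 was lower (-1.31). Of 15 members 6 were higher and 1 lower, against 20.9% and 7.17% of all genes, and the medians were 1.12 (0.05 with bounds) and 0.28. Pathway genes numbered 19 higher and 2 lower of 39, among them Vcan (4.16) and Col1a2 (3.37). In MuSCs of no named state (31 sham, 337 MOV) Timp1 was higher at 2.40 (2.05 to 2.78), Mmp14 at 1.53 and Timp3 at 1.37, Adamts1 was lower at -1.57 and Lox stood at 0.34. Adamts9 and Mmp15, with 1 sham UMI each, were also higher, and Adamts8 was lower. There 5 of 24 members were higher and 2 lower, against 15.9% and 9.51% of all genes, with medians of 0.81 (0.74 with bounds) and 0.24. Whether the Timp1 ratio differs between these states was not tested. In quiescence-marker MuSCs Lrrc15 fibroblast markers summed to 33.4 CPM in sham and 259.3 in MOV, and tenocyte markers to 3.34 and 43.5. Pdgfra-cell markers summed there to 371 and 282 CPM and fibre markers to 1273.5 and 571.5. Fibre markers summed to 40896 CPM in sham and 1352.9 in MOV MuSCs of no named state, and Lrrc15 fibroblast markers to 63.65 and 301.5. The part of these markers in the ratios of both states was not tested. In thinned cells Adamts1 of the quiescence-marker MuSCs stood at -0.69 and Mmp14 of the unnamed MuSCs at 0.73.

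In Pdgfra cells the libraries differed most in Timp1 and Lox. Timp1 stood at 213.3 CPM in sham and 4072 in MOV, 19.1-fold higher (log2 4.25, 3.90 to 4.63), and Lox stood at 189.9 and 1664, 8.76-fold higher (3.13, 2.76 to 3.53). Mmp19 (1.97), Mmp23 (2.07), Loxl3 (1.61), Adamts12 (1.42), Adamts15 (1.01, from 100 and 1 UMIs) and Mmp14 (1.05, 0.64 to 1.50) were also higher, and Loxl2 (0.81) and Loxl1 (0.51) were higher within 2-fold. The sham values came from few cells: 64 Timp1 UMIs lay in 10 of 25 cells with 35 in 1 cell, and 57 Lox UMIs in 8 of 25 cells with 28 in 1 cell, whereas 415 and 413 of the 416 MOV cells had a UMI. Thinned to 2000 UMIs, 24% of sham (9.36 to 45.1) and 93.7% of MOV cells (90.9 to 95.8) had a Timp1 UMI, and 16% (4.54 to 36.1) and 84% (80.1 to 87.4) a Lox UMI.

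The lower members in MOV Pdgfra cells were the inhibitors Timp3 and Timp2 and 6 proteases. Timp3 stood at a log2 of -2.27 (-2.50 to -2.04), Mmp11 at -2.26 (-3.31 to -1.0, from 83 and 8 UMIs), Adamts1 at -1.80 (-1.96 to -1.65), Adamts9 at -1.56, Mmp3 at -1.29 (-1.78 to -0.77), Adamts5 at -1.17 (-1.41 to -0.91), Mmp2 at -1.15 (-1.32 to -0.96) and Timp2 at -1.04 (-1.18 to -0.89). Of these, Mmp2 stood at -0.79 without the top cell, at the same value without shared barcodes and at -0.47 in thinned cells, and Timp2 at -0.81 with TMM scaling (edgeR's trimmed mean method). The sham Mmp3 value came from 36 UMIs, 15 of them in 1 cell. Of 32 members 8 were at least 2-fold higher and 8 lower, against 13.3% and 16.9% of all genes (30.2% either way), with medians of 0.66 (0.39 with bounds) and 0.12. Pathway genes numbered 10 higher and 13 lower of 53, the farthest being the lower A2m, a broad protease inhibitor (1.339 against 56.65 CPM), Pcsk6 (39.43 against 366.6), Adamtsl2 (2.812 against 33.32) and Lama2 (90.37 against 383.2).

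The Pdgfra groups of both libraries also differed in other ways. The 116 Lrrc15 cells were all MOV, and without them Timp1 stood at 4.45, Lox at 3.17, Mmp23 at 1.95, Mmp14 at 0.86, Timp3 at -2.10, Adamts1 at -1.58, Mmp2 at -1.10 and Timp2 at -1.0, with 7 of 30 members higher and 8 lower, against 13.9% and 15.2% of all genes. Immediate-early genes, which are known to be induced by dissociation, summed to 11320 CPM in sham and 3170.4 in MOV Pdgfra cells, with all 7 listed genes read in each. The Pdgfra marker list itself summed to 8884 and 2516.2 CPM, tenocyte markers to 766.4 and 2688.2, Lrrc15 fibroblast markers to 4258.7 and 10017 and G2/M markers to 6.665 and 819.8. The part of these differences in the member values was not tested. Without shared barcodes Timp1 stood at 5.10, Lox at 3.80, Mmp23 at 3.47 and Mmp14 at 1.69.

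Tenocyte-marker cells, compared as an addition after the data were seen, also held more Timp1 and less Timp3 in MOV. Timp1 stood at 529.5 CPM in sham (125 UMIs in 11 of 22 cells, 59 of them in 1) and 4972 in MOV (log2 3.23, 2.98 to 3.50), and Timp3 at 1614 and 254.6 (-2.66, -2.85 to -2.48). Mmp14 stood at 38.12 and 370.1 CPM (3.28, 2.35 to 4.41), Loxl1 at 55.07 and 180.8 (1.72), Mmp23 at a log2 of 1.76, Mmp16 at 1.52 from 69 and 2 UMIs, and Loxl2 at 84.72 and 202.3 (1.26). Lox was already abundant in sham, at 1165 against 1646 CPM (0.50, 0.32 to 0.68), with a UMI in 19 of 22 sham and 130 of 134 MOV cells. Mmp2 (0.10), Timp2 (-0.45) and Adamts1 (-0.13) were within 2-fold. Mmp3 and Mmp13 had no sham UMI in this group, and their log2 ratios were at least 5.39 and 4.94, the latter 4.01 without the top cell.

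Of 25 members 8 were at least 2-fold higher in MOV tenocyte-marker cells and 3 lower (Timp3, and Loxl4 and Adamts10 with 4 sham UMIs each), against 14.6% and 13.7% of all genes, with medians of 0.54 (0.26 with bounds) and 0.05. Pathway genes numbered 16 higher and 6 lower of 49, among them Col3a1 (5337 against 144 CPM), Vcan (130.3 against 4.236) and, lower, the membrane-bound Mmp inhibitor Reck (17.3 against 97.43). The tenocyte marker list itself summed to 31559 CPM in sham and 14236 in MOV cells of the group, immediate-early genes to 16792 and 5757.6, Lrrc15 fibroblast markers to 495.6 and 5332.8 and Pdgfra-cell markers to 262.6 and 792. The part of these differences in the member values was not tested.

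**Figure D5:**
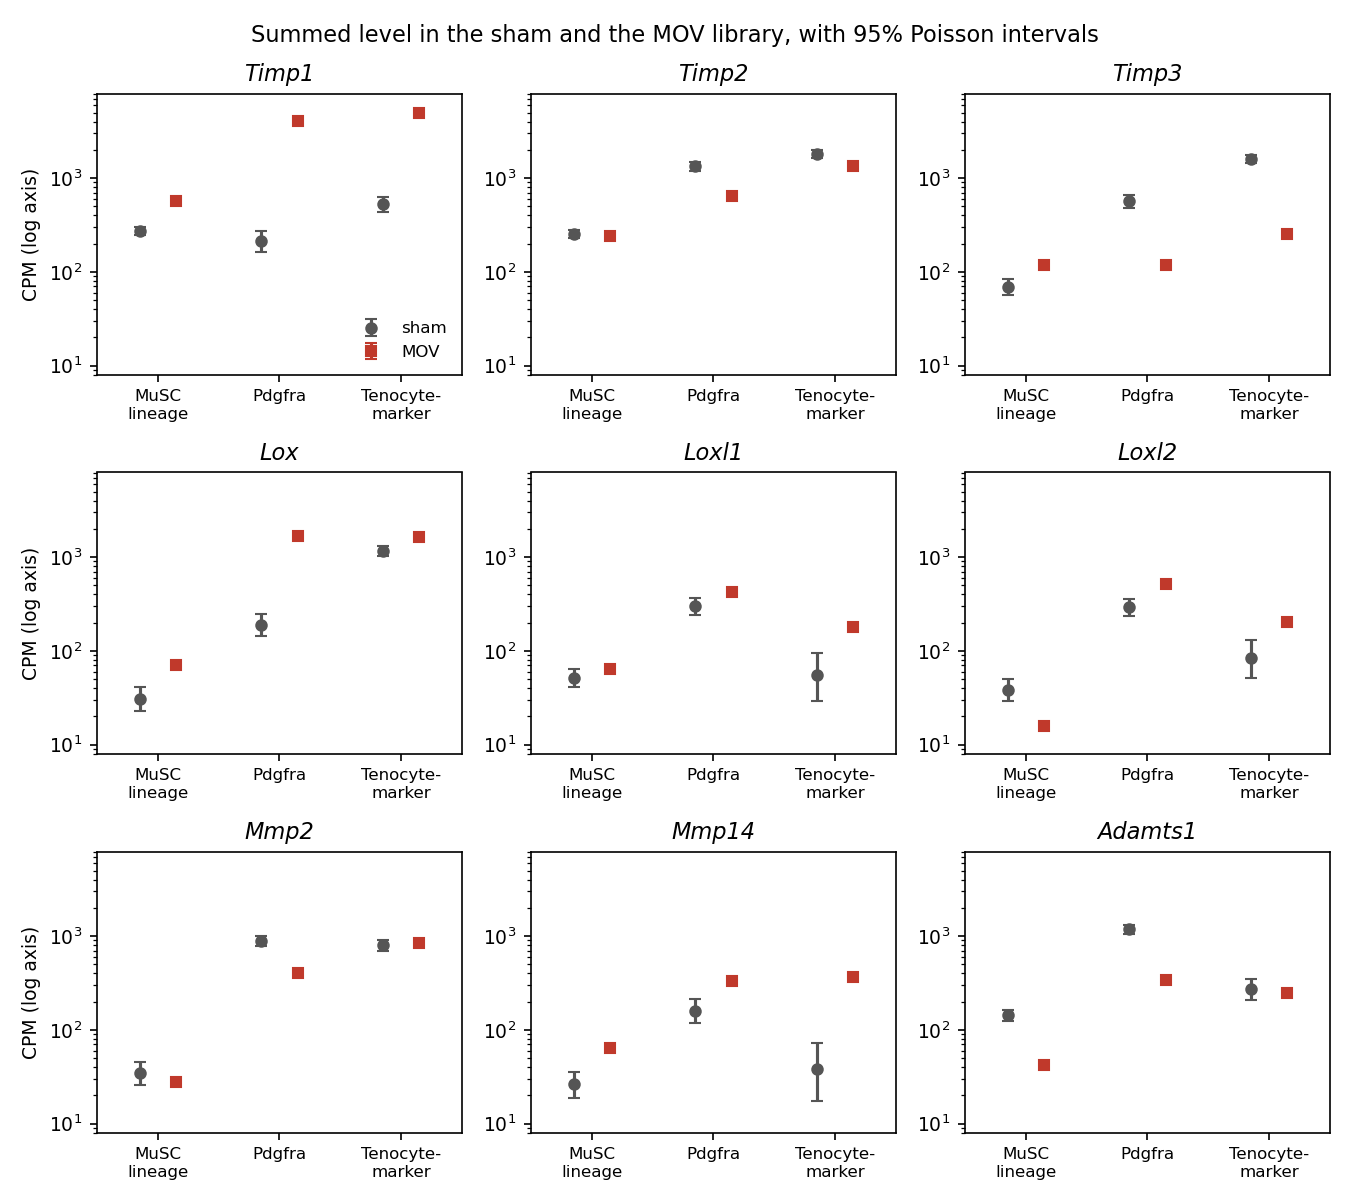
CPM (log axis) with 95% Poisson intervals of 9 members (panels) in MuSC-lineage, Pdgfra and tenocyte-marker cells of the sham (circles) and MOV (squares) libraries. Timp1 is higher in MOV in all 3 groups, from 213.3 CPM in sham Pdgfra cells, and Timp3 is lower in MOV in Pdgfra and tenocyte-marker cells, at 1614 and 254.6 CPM in the latter.

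The sum of inhibitor over protease UMIs differed by cell group. Timp genes had 7.949 UMIs for each Mmp UMI in sham MuSCs and 8.125 in MOV MuSCs, 1.668 and 4.578 in Pdgfra cells and 4.374 and 2.776 in tenocyte-marker cells. MOV late myocytes had 12.3, Lrrc15 cells 3.368 and myeloid cells 1.453. Without the top cells of Mmp9 and Mmp12 the myeloid value was 2.883, and without the top cell of Mmp13 the MOV tenocyte value was 3.138. All members together made up 1081 CPM in sham and 1396 in MOV MuSCs, 6215 and 9594 in Pdgfra cells and 6774 and 11560 in tenocyte-marker cells. These are ratios of RNA counts, and precursor and active enzyme are not told apart by them.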

How the data were processed

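UMI counts per gene and cell were deposited by the authors as filtered 10x Genomics 3′ matrices, and the submitters' processing notes list Cell Ranger 6.0.0 and mm10. Here, cells with over 10% mitochondrial UMIs and the top Scrublet doublet scores (Scanpy 1.11.5; 0.8% per 1000 cells, 4 sham and 75 MOV) were left out. Cell groups were cells with a minimum number of detected markers (MuSC 4 of 10, Pdgfra 5 of 9, tenocyte 4 of 7, myeloid 4 of 11), and cells passing several lists were set apart (6 sham, 184 MOV). Names such as "Pdgfra cells" come from these gates, whose limits were set after the data were seen. MuSC states were assigned in the order late and early myocyte, G2/M, S phase, interferon, immediate-early, quiescence-marker, matrix.

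Counts were summed per group and library (Python 3.11.15, NumPy 2.4.6, SciPy 1.17.1, pandas 2.3.3) and given as CPM with exact Poisson intervals. Ratios carry exact conditional 95% intervals. A gene was tested for a 2-fold ratio from 20 UMIs over both groups, with 3 counts as the floor against 0, in groups of at least 20 cells. The members named by rule in each comparison were those whose interval lay beyond 2-fold, at most 15 by the bound nearest to no difference, and Mmp2, Mmp14, Timp1, Timp2, Timp3, Adamts1, Lox and Loxl1. Other members given with a ratio, among them members counted among 5 or fewer, were added after their values were seen. The ratios recomputed under the alternatives cover only the members named by rule. The calculation was tested on simulated Poisson counts of whole groups. These hold no spread between cells, so that test could not check the intervals against such spread. The members and lists were chosen with earlier results of these data known. Coordinates are from GENCODE M21 (GRCm38; all 50 members matched). Alternatives were other mitochondrial limits, doublets kept, 1 more marker, TMM (edgeR 4.0.16) or median-of-ratios (DESeq2 1.42.0) scaling, other UMI minimums, thinning, means over cells, and leaving out shared barcodes, cycling MuSCs or each member's top cell. Depth, in cells and UMIs, limits precision most in the sham groups.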

Additional observations from a re-analysis of the deposited data

Results flagged for a closer look

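For 3 members the MOV over sham ratio had opposite signs in different cell groups, with counting intervals on opposite sides of no difference. The difference between groups was not tested in any of these cases, since each surgery is 1 library. Timp3 stood at a log2 of 0.79 in MuSCs, at -2.27 in Pdgfra cells and at -2.66 in tenocyte-marker cells. Loxl2 stood at -1.30 in MuSCs, at 0.81 in Pdgfra cells and at 1.26 in tenocyte-marker cells. Mmp3 stood at -1.29 in Pdgfra cells, where the sham value came from 36 UMIs in 3 of 25 cells, and at 5.39 or more in tenocyte-marker cells, where sham had no UMI. The Loxl2 ratios, and that of Mmp3 in Pdgfra cells, were not named by rule and so were not recomputed under the alternatives.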

How the results depend on the processing

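Over 14 alternative settings 2966 recomputed ratios of named members gave 2499 values within their counting interval, 464 outside it and 3 that turned the sign of a ratio past 2-fold, and 2852 stayed on their side of 2-fold. Signs also turned 62 times for ratios within 2-fold. The settings differed widely. Means over cells, which weigh each cell alike, put 116 of 227 ratios outside their interval and left 200 on their side of 2-fold. Thinning put 137 of 214 outside and left 182 on their side. A minimum of 1 or of 5 UMIs left all 227 within. The 3 turns of ratios past 2-fold were Timp4 over all kept cells with a mitochondrial limit of 5% (0.0994, against -1.93), and, in cells thinned to 2000 UMIs, Adamts15 in tenocyte-marker against Pdgfra cells (0.1164, against -2.66) and Mmp2 in myeloid cells against MuSCs (-0.112, against 1.37); the cause was not tested. Thinning left fewer members with 20 UMIs, and the members past 2-fold then numbered 4 (11 without thinning) in MOV against sham MuSCs, 4 (7) in quiescence-marker MuSCs, 3 (7) in MuSCs of no named state, 18 (31) in Pdgfra cells against MuSCs, 10 (21) in tenocyte-marker against Pdgfra cells, 9 (19) in myeloid cells against MuSCs, 2 (5) in Lrrc15 against other Pdgfra cells and 33 (81) summed over the MuSC states. Lrrc15 against other Pdgfra cells gave 8 with 1 more marker, 11 with a minimum of 5 or of 1 UMI, and 8 with means over cells. Scaling shifted all MOV over sham ratios by -0.24 (TMM) or -0.35 (median of ratios) over all kept cells, 0.23 or 0.16 in Pdgfra cells and 0.23 or 0.13 in tenocyte-marker cells. With S and G2/M MuSCs left out Adamts1 over all kept cells stood at 0.0981, against -0.29. A limit of 5% left too few sham cells for the quiescence-marker, tenocyte-marker and unnamed MuSC comparisons, and 1 more marker too few for the first of these. No paired analysis was possible because each group has 1 library.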
